A study of Mus musculus with 28 samples.

Results

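Low oxygen was examined in osteoblast cultures of O9-1 cells, an established mouse cell line of cranial neural crest. The 3 hypoxic libraries (0.5% O2) were compared with the 4 normoxic libraries (21% O2) of the same differentiation medium, 7 of the 28 RNA-seq libraries of the series. The members are the libraries whose titles name osteoblast differentiation, a rule that uses no measured value. Both groups were kept for 10 days in alpha-MEM with 10% fetal calf serum, 10 mM beta-glycerophosphate, 0.1 µM dexamethasone and 100 ng/ml of the bone morphogenetic protein BMP-2, so every library carries the osteogenic additives and the groups differ only in the stated oxygen level. The labels do not say when in those 10 days low oxygen began. The rest of the series holds proliferating, chondrocyte and smooth muscle cultures of the same line at both oxygen levels, again with 4 normoxic and 3 hypoxic libraries each. 2 of these conditions are used below: proliferating cells, in conditioned DMEM with 15% serum, bFGF and LIF, and chondrocyte cultures. The chondrocyte cultures had 3 days of osteogenic medium and then 7 days of micromass culture in a chondrogenic medium. That medium held 5% serum, 10 ng/ml TGF-beta3 and 50 ng/ml BMP-2, and the labels give these cultures 0.1 µM dexamethasone as well. The labels do not say whether replicates are separate cultures, so the p-values below measure the spread between these samples, which may be technical. O9-1 is a single cultured line, and a mixed dish of maturing cells was sequenced as bulk RNA, in which fewer cells of a type and less RNA per cell cannot be told apart.

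Osteoblasts are the cells that lay down and mineralise bone matrix. Their commitment runs through the transcription factors Runx2 and then Sp7 (osterix), after which they make type I collagen, the mineralisation enzyme Alpl and, later, bone sialoprotein (Ibsp) and osteocalcin (Bglap). In the face and part of the skull vault these cells arise from neural crest. When oxygen falls, prolyl hydroxylases of the Egln family stop marking HIF-1alpha for degradation, and HIF binds hypoxia response elements with the core ACGTG or GCGTG beside genes for glycolysis, angiogenesis and adaptation of the mitochondria.

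The core element could be looked for in the promoters of the hypoxia genes described below, most of which were called higher. Of 66 listed hypoxia genes, 53 had a promoter in the RefSeq table (GRCm38.p6). The letters ACGTG, on either strand and with overlapping matches counted, were in the 250 bases before the transcription start of 30 of them (56.6%), against 24.9% of the 10255 matched genes tested here, 25.7% of the called genes up by 1 or more on the log2 scale and 21.3% of those down by as much. The letters GCGTG, searched the same way, were in 36 of the 53 (67.9%), against 50.2% of the genes tested, 50.2% of those up and 41.4% of those down, a smaller gap, and a promoter may hold both forms. Promoters of 4 genes that rose are shown because they hold more than 1 match: Ldha (lactate dehydrogenase A; chr7:46845554-46845803, plus strand), Pgk1 (phosphoglycerate kinase; chrX:106186850-106187099, plus strand), Bnip3 (a mitophagy receptor; chr7:138909507-138909756, minus strand) and Hk2 (hexokinase 2; chr6:82774455-82774704, minus strand). Each is written 5′ to 3′ along the gene's strand, ends at the base before the start site, and has ACGTG or its reverse complement CACGT in capitals.
Ldha: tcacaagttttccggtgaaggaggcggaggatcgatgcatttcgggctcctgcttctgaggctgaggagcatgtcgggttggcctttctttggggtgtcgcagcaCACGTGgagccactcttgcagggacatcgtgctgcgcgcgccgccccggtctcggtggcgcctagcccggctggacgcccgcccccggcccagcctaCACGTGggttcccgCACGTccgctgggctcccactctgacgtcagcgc
Pgk1: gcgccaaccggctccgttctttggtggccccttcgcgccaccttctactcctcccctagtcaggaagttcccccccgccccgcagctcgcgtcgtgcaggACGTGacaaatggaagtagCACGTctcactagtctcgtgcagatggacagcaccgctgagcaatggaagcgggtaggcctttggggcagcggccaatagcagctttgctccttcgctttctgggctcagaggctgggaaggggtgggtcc
Bnip3: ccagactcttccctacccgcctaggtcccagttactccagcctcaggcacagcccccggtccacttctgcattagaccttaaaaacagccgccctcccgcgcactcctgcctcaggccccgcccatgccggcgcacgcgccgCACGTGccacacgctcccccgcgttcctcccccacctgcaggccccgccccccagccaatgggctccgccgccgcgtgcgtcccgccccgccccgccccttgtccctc
Hk2: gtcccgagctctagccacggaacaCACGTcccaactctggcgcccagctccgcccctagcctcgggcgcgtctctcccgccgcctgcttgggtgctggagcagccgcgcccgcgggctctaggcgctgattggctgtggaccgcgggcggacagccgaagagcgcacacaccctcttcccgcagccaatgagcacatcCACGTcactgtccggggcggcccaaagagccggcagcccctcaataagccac
Ldha held 5 matches and the other genes 2 each. Each CACGTG counts as 2 overlapping matches, so the pair in Bnip3 lies at 1 place and the 5 in Ldha are not all separate places. A match describes these letters and is not a measured binding site. The listed genes were taken as known hypoxia targets, so an excess of the element among them may be built into the list. Among all called genes up by 1 or more, the share with ACGTG (25.7%) was near that of the genes tested (24.9%).

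The 7 libraries held 23357645 to 29675404 counts, and their 10 most abundant genes took 8.15% to 9.65% of them. Mitochondrially encoded genes took 0.955% to 1.36% of counts in normoxic and 0.573% to 0.72% in hypoxic libraries. No pair of libraries agreed within sampling noise. Normoxic replicate 4 stood apart: over the tested genes its log2 levels lay a root mean square of 0.554 to 0.564 from replicates 1 to 3, which lay 0.219 to 0.229 from one another, while hypoxic libraries lay 0.943 to 1.03 from replicates 1 to 3 and 0.927 to 0.99 from replicate 4. For each normoxic library in turn, a position was computed on the genes that differed by at least 1 on the log2 scale between the hypoxic libraries and the other three normoxic libraries, with 0 at those normoxic libraries and 1 at the hypoxic mean. Replicates 1, 2 and 3 had median positions of -0.00691, -0.0163 and -0.00478, and replicate 4 had 0.151 (quartiles -0.0791 and 0.441; 3469 genes). Of those genes, 715 (20.6%) lay past 0.5 in replicate 4, against 2.42% to 3.67% for the others. Results are therefore given with all 7 libraries and without normoxic replicate 4.

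**Figure D1:**
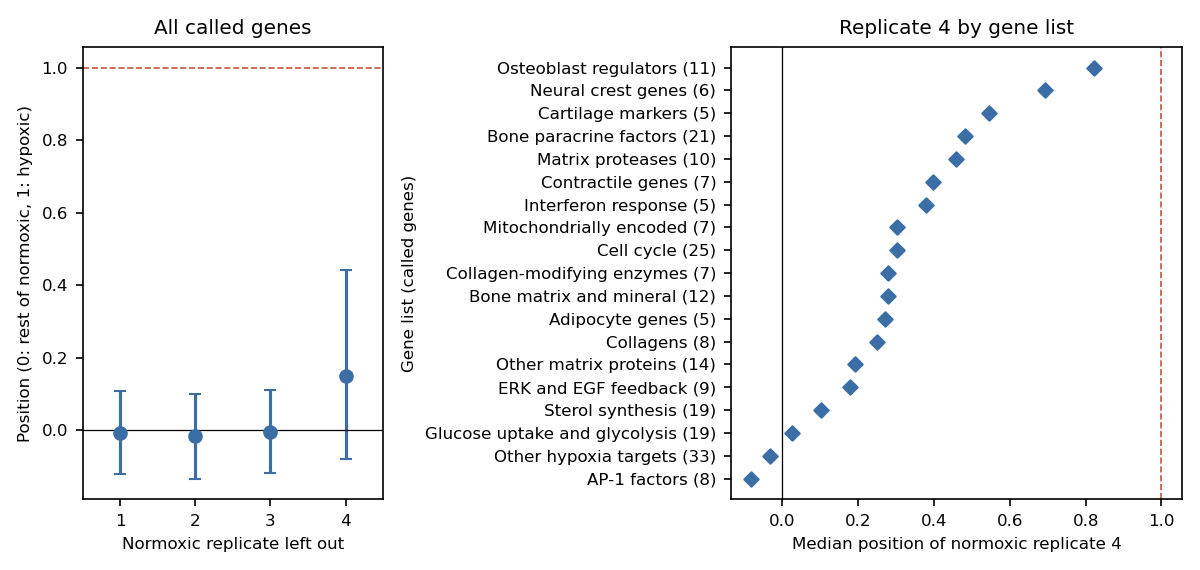
Left, the median position of each normoxic library between the other normoxic libraries (0) and the hypoxic mean (1) over the genes called without it, with bars to the quartiles; right, the median position of normoxic replicate 4 for the called genes of each list with at least 5 such genes, their number in brackets. Replicates 1 to 3 sit at 0 and replicate 4 at 0.151, from -0.0819 for AP-1 factors and 0.0254 for glycolysis to 0.822 for osteoblast regulators.

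Replicate 4 did not lie at one point between the groups. On osteoblast regulators its median position was 0.822 (11 genes), on bone paracrine factors 0.481 (21 genes) and on matrix proteases 0.457 (10 genes), so there it was near or part of the way to the hypoxic cultures. It was at 0.693 on neural crest genes (6 genes), 0.546 on cartilage markers (5 genes) and 0.278 on bone matrix and mineral (12 genes). On glycolysis (0.0254, 19 genes), other hypoxia targets (-0.034, 33 genes) and AP-1 factors (-0.0819, 8 genes) its median lay with the other normoxic libraries, although 2 of the 8 AP-1 genes and 2 of the 33 targets lay past 0.5.

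Low oxygen was accompanied by a difference in most of the genes that passed a filter on low counts. Of 14533 genes tested on raw counts, out of 23208 with any count, with edgeR's quasi-likelihood test, 3917 (27%) were higher and 3973 (27.3%) lower in hypoxic cultures at a Benjamini-Hochberg adjusted p under 0.05, the rule for "called" from here on, and 1524 and 1728 of them by at least 1 on the log2 scale. Without normoxic replicate 4, 4707 of 14295 genes (32.9%) were higher and 4670 (32.7%) lower. The 7777 genes called in both fits all had the same direction, which is 98.6% of the calls with 7 libraries and 82.9% of those with 6. The median log2 fold change was -0.03 with 7 and -0.01 with 6 libraries. When counts were scaled by library size alone, the median moved to -0.19, and the share of calls that were higher fell from 49.6% to 36.9% (without replicate 4, from 50.2% to 39.7% at a median of -0.15). Small changes are read against that shift. Of the genes tested, 1574 passed the filter on low counts through 1 group only, 406 of them through the hypoxic group. That route favours a difference without forcing one: Egr2 (-0.19) and Pax3 (0.71), both through the normoxic group, were not called.

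Levels are given as counts per 1000000 (CPM) scaled by the trimmed mean of M values, in the order of the replicates. Changes given after "by" or in brackets are log2 fold changes of hypoxic over normoxic libraries, with ± for the standard error. CPM are not corrected for transcript length, so they compare a gene across libraries and not one gene with another. Fosl1 (FRA-1, an AP-1 factor that promotes bone formation; chr19:5447547-5455946 on the plus strand, GRCm38) stood at 0.29, 0.412, 0.567 and 1.62 CPM in the normoxic libraries and 58.9, 63.8 and 79.4 CPM in the hypoxic ones. The groups were far apart, and replicate 4 was the highest normoxic library. The log2 fold change was 6.50 ± 0.43 (SE; edgeR adjusted p = 1.22e-05), and 7.29 without replicate 4.

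Sp7, the second master regulator of osteoblasts (chr15:102356606-102367182 on the minus strand), was at 1.2, 0.701 and 1.42 CPM in normoxic replicates 1 to 3, at 47.9 CPM in replicate 4 and at 101 CPM in each of the 3 hypoxic libraries. The groups did not overlap, yet 1 normoxic library was far above the other three. With 7 libraries the log2 fold change was 2.97 ± 1.45 and was not called (edgeR adjusted p = 0.131). Without replicate 4 it was 6.48 (edgeR adjusted p = 1.41e-12). Limma-voom on the 7 libraries gave 5.08 (adjusted p = 0.0029), and the authors' deposited table gives 0.85 with an unadjusted p of 0.0807.

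Egfl6, a secreted matrix protein with EGF-like repeats made by osteoblasts and other mesenchyme (chrX:166523007-166585720 on the minus strand), went the other way. It was at 512, 502, 485 and 179.6 CPM in the normoxic libraries and at 0.728, 1.04 and 0.443 CPM in the hypoxic ones. Replicate 4 was the lowest normoxic library and still far above every hypoxic one. The log2 fold change was -9.14 ± 0.58 (edgeR adjusted p = 1.29e-05), the lowest value among the called genes with at least 10 counts on average in each group.

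**Figure D2:**
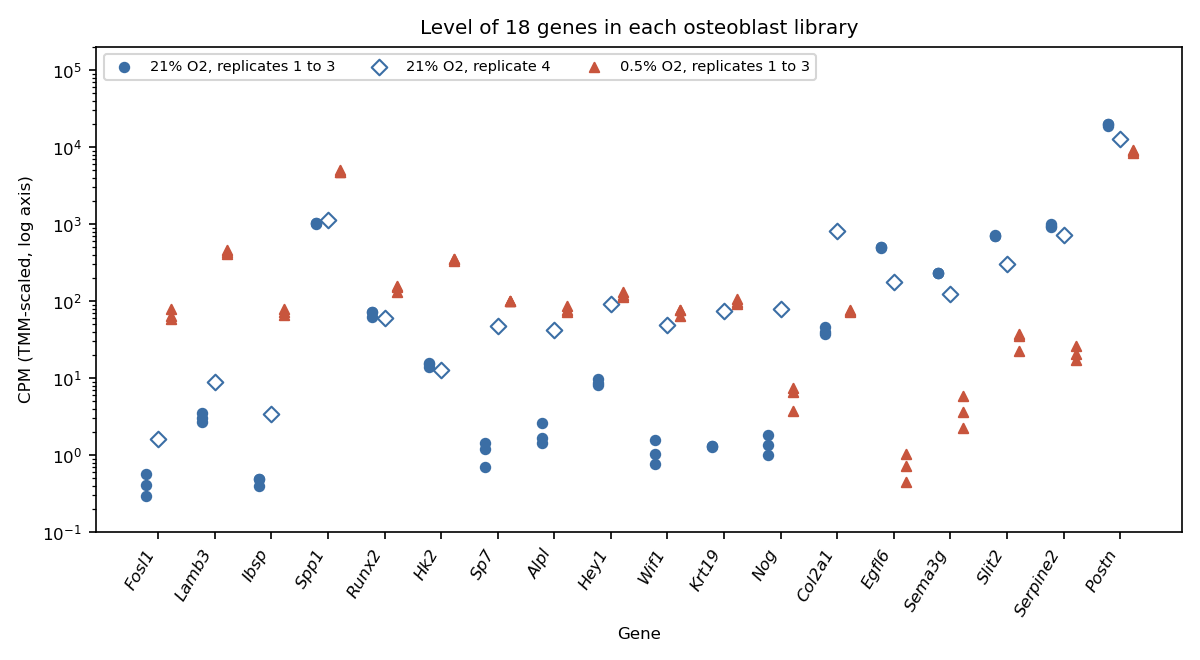
CPM on a log axis of 18 genes in each osteoblast library, with normoxic replicates 1 to 3 as circles, normoxic replicate 4 as open diamonds and hypoxic replicates as triangles. For Sp7 the diamond (47.9) sits nearer the hypoxic libraries (101) than the other normoxic ones (0.701 to 1.42), for Hk2 it sits with the normoxic ones, and for Nog (79.2) and Col2a1 (818) it lies above both groups.

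Among genes called in both fits, with groups that did not overlap and at least 10 counts on average in each group, the 10 largest rises were those of Mgarp, Lamb3, Fosl1, Sorbs2, Ak4, Ibsp, Msln, Aqp5, Jag2 and Notch4. Mgarp, a mitochondrial protein induced by hypoxia, stood at 0.236–0.742 CPM in normoxic and 59–69.4 CPM in hypoxic libraries (log2 fold change 6.91 ± 0.24). Lamb3, the beta-3 chain of laminin-332, went from 2.69–8.85 to 413–463 CPM, and Sorbs2, a scaffold of the actin cytoskeleton, from 0.412–3.44 to 86.8–94.1 CPM (6.08, and 7.23 without replicate 4). The mitochondrial adenylate kinase Ak4 rose by 5.96, the surface protein mesothelin (Msln) by 5.65 and the water channel Aqp5 by 5.54 on the log2 scale. A Notch ligand and a Notch receptor were in this group: Jag2 was at 0.124–0.844 CPM in normoxic and 14.7–21.7 CPM in hypoxic libraries, and Notch4 at 0.284–0.824 and 22–27.3 CPM.

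The 10 largest falls were those of Egfl6, Col23a1, Sema3g, Sncaip, Serpine2, Fgf18, Rspo2, Slit2, Mfap4 and Spats2l. Serpine2 (protease nexin-1, an inhibitor of thrombin and plasminogen activators) fell from 724–1006 to 17.2–26.3 CPM, a log2 fold change of -5.41 ± 0.20. Of the guidance cues, Sema3g fell from 124–232 to 2.25–5.95 CPM and Slit2 from 299–727 to 22.4–36.9 CPM, with replicate 4 the lowest normoxic library for each (124 and 299 CPM). A pair of growth signals also fell, the osteogenic factor Fgf18 (-4.64) and the Wnt agonist Rspo2 (-4.30). The transmembrane collagen Col23a1 fell (-6.37), as did the elastic fibre protein Mfap4 (-4.28).

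Some genes were near 0 in 1 group, passed the count filter through the other alone and had to differ to be tested. Car12 (a carbonic anhydrase of the cell surface) was at 0.124–0.284 CPM in normoxic and 39.9–45 CPM in hypoxic libraries, the glycogen phosphorylase Pygl at 0–0.236 and 33.7–40.3 CPM, the metallothionein Mt4 at 0–0.371 and 27.9–32 CPM and the transcriptional repressor Prdm1 at 0.0412–0.405 and 24.2–27.1 CPM. In the other direction, elastin (Eln) was at 50.8–88.9 CPM in normoxic and 0.0369–0.688 CPM in hypoxic libraries, the angiotensin receptor Agtr2 at 9.29–42 and 0.0717–0.162 CPM and Pgm5, a protein of adherens junctions, at 23.4–34.1 and 0.0717–0.369 CPM. Stk32b, a kinase, was at 9.62–25.1 CPM in normoxic libraries and at 0 in 2 hypoxic libraries and 0.0369 CPM in the third.

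By the size of the difference in CPM, the most abundant genes that rose were Adamts1 (a versican-cleaving protease), the metallothioneins Mt1 and Mt2, Spp1 (osteopontin), Col6a3 and the glycolytic genes Pgk1, Pkm and Ldha. Adamts1 was at 1598–2163 CPM in normoxic and 6189–6909 CPM in hypoxic libraries, and Mt2 at 522–807 and 4967–5397 CPM. Col6a3, a chain of type VI collagen, was at 1019–1085 and 4338–5019 CPM. The corresponding falls were those of Postn (periostin), Tnc (tenascin-C), Fstl1, Gas1, Tpm1, Kctd12, Col8a1 and Fbln5. Periostin, a matrix protein of the osteoblast surface and periosteum, fell from 12874–20134 to 8434–9080 CPM (log2 fold change -1.02 ± 0.16), and tenascin-C fell from 2010–2438 to 232–310.2 CPM (-3.05 ± 0.14).

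**Figure D3:**
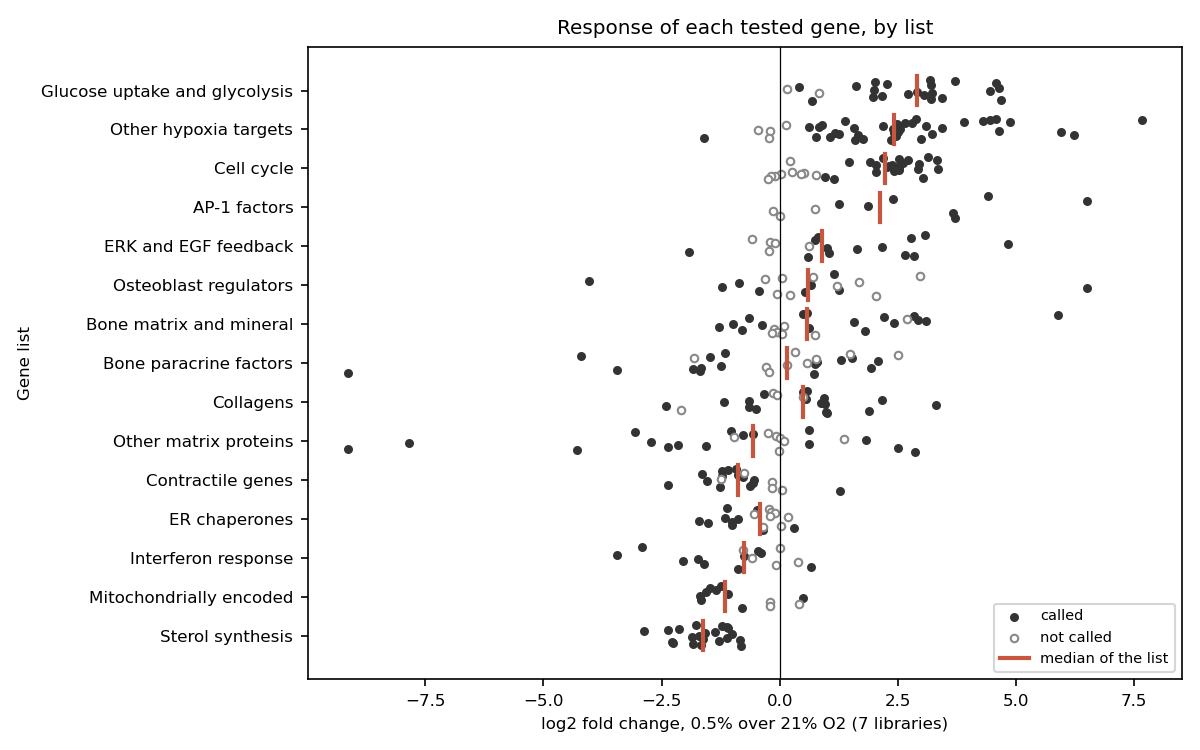
The log2 fold change of hypoxic over normoxic osteoblast cultures for every tested gene of 15 lists, called genes filled and others open, with each list's median as a bar. Glycolysis (median 2.90), other hypoxia targets (2.41) and the cell cycle (2.23) lie to the right and sterol synthesis (-1.62) wholly to the left, while bone lists spread to both sides.

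Counts of called genes within a list are read against the 27% of all tested genes that rose and the 27.3% that fell, or 32.9% and 32.7% without replicate 4.

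The 18 listed transcription factors of the osteoblast lineage were all tested. With 7 libraries 5 rose (27.8%) and 4 fell (22.2%), near the 27% and 27.3% of all genes, at a median log2 fold change of 0.60, and without replicate 4 12 of 17 rose and 4 fell, at a median of 1.09 (all genes: -0.03 and -0.01). With the 7 libraries limma-voom called 10 higher, and the fit of all 28 libraries called 9. Runx2, the first master regulator, was at 61.9, 72.2, 71.4 and 60.2 CPM in normoxic and 130.3, 153 and 157 CPM in hypoxic libraries, groups that did not overlap. Its log2 fold change was 1.14 ± 0.10 (edgeR adjusted p = 2.09e-05). Atf4, Fosl2 and Twist1 rose by 0.67, 1.26 and 0.53. The largest fall was that of Msx1, a homeobox factor of craniofacial mesenchyme, which was at 183, 209, 209.9 and 259.7 CPM in normoxic and 11.9, 14.6 and 12.6 CPM in hypoxic libraries (-4.04 ± 0.15). Zfp521 fell (-1.21).

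For several more of these factors the call turned on replicate 4, as it did for Sp7, and for some also on the test used. Hey1, a Notch and BMP target, was at 8.61, 9.65 and 8.26 CPM in normoxic replicates 1 to 3, 92.2 CPM in replicate 4 and 114, 119.5 and 131 CPM in hypoxic libraries. Msx2 was at 3.33–4.62 CPM in replicates 1 to 3, 25.9 CPM in replicate 4 and 28.9–31.8 CPM in hypoxic libraries. Dlx5, a homeobox activator of Runx2 and Sp7, was highest in replicate 4 itself, at 26 CPM against 3.05–3.79 in replicates 1 to 3 and 8.78–10.6 CPM in hypoxia. Dlx3, tested through the hypoxic group alone, had a log2 fold change of 0.70 with 7 libraries (edgeR adjusted p = 0.713) and rose by 6.21 without replicate 4. Tcf7 and Tead1 were likewise called without it and not with it (2.31 and 0.18).

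Of 26 listed genes of the bone matrix and its mineral, 23 were tested, 11 rose (47.8%) and 5 fell (21.7%, under the 27.3% of all genes; median 0.57), and without replicate 4 14 rose and 5 fell (median 0.77). Phospho1 and Bglap2 passed the count filter through the hypoxic group alone. Collagen I, the bulk of bone matrix, differed modestly: Col1a1 was at 5880, 5927, 5918 and 9783 CPM in normoxic and 8783, 10699 and 11136 CPM in hypoxic libraries, and the groups overlapped because replicate 4 lay above 1 hypoxic library. Its log2 fold change was 0.57 ± 0.20 (edgeR adjusted p = 0.0339), and that of Col1a2 0.49 ± 0.11. The Col1a1 call did not hold with library size alone (0.41), nor when any 1 library other than normoxic replicate 4 or hypoxic replicate 1 was left out (0.50 to 0.54).

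Bone sialoprotein (Ibsp), a nucleator of mineral, was at 0.399, 0.495, 0.496 and 3.38 CPM in normoxic and 79.1, 72.8 and 66.4 CPM in hypoxic libraries. Replicate 4 was the highest normoxic library, and still far under the hypoxic ones, with a log2 fold change of 5.89 ± 0.65 (edgeR adjusted p = 0.00027), and of 7.28 without it. Osteopontin (Spp1), a phosphoprotein of bone and an inhibitor of crystal growth, was at 1046, 1012, 1026 and 1146 and 5124, 4780 and 4822 CPM, a rise of 2.21 ± 0.09. Alpl, which releases phosphate from pyrophosphate, was at 1.67, 2.64 and 1.45 CPM in replicates 1 to 3, 42.2 CPM in replicate 4 and 71.3, 75.6 and 87.2 CPM in hypoxic libraries. It was not called with 7 libraries (2.69 ± 1.25, edgeR adjusted p = 0.117) and rose by 5.36 without replicate 4.

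Later markers rose from low levels. The osteocyte genes Dmp1, Phex and Mepe reached 7.32–14.2, 1.38–1.72 and 3.14–4.29 CPM in hypoxic libraries, from 0.473–2.07, 0.412–0.642 and 0.247–1.35 CPM in normoxic ones (Mepe 2.41, and 3.02 without replicate 4). The phosphatase Phospho1 rose by 2.92 and Smpd3, a sphingomyelinase needed for mineralisation, by 0.61. Osteocalcin comes from near-identical gene copies, among which reads may be split, so its values are uncertain: Bglap2 was at 0–0.473 CPM in normoxic and 0.997–1.46 CPM in hypoxic libraries (2.84, and 4.22 without replicate 4), and Bglap, at most 0.517 CPM, was not tested. Of the genes that restrain mineralisation, osteopontin rose as given above, whereas matrix Gla protein (Mgp) fell (-0.81), as did the pyrophosphate-forming enzyme Enpp1 (-0.99) and the pyrophosphate transporter Ank (-0.37). Osteonectin (Sparc), a collagen-binding protein, fell from 4426–6582 to 3178–3386 CPM (-0.65 ± 0.15).

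The label was set against its markers. In normoxic replicates 1 to 3 Runx2 and collagen I were well expressed, whereas Sp7 (at most 1.42 CPM), Alpl (at most 2.64 CPM), Ibsp (at most 0.496 CPM) and Bglap (at most 0.0355 CPM) were at or near 0. These 3 libraries therefore lack the defining transcripts of mature osteoblasts, and "osteoblast culture" names the medium. Replicate 4 and the hypoxic libraries held Sp7 and Alpl.

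Of 29 listed signals between bone cells 25 were tested. With 7 libraries 7 rose (28%) and 9 fell (36%), near the 27% and 27.3% of all genes (median 0.15; 4 rose with no filter beyond 1 count), and 14 of 24 rose and 9 fell without replicate 4 (median 1.01). Among secreted ligands, Igf1 fell from 56.2–84.3 to 15.8–20.7 CPM (-1.84 ± 0.17), as did Bmp2 (-1.24). Igf2 fell (-3.44) (-2.80 without replicate 4), but passed the count filter through the normoxic group alone, which favoured a fall. Osteoprotegerin (Tnfrsf11b), the decoy receptor for RANKL, fell from 83.2–112 to 43.2–47.5 CPM. RANKL itself (Tnfsf11) was at 1.13 CPM or less in every library and was not called. The Wnt antagonist Sfrp1 fell from 156–200.4 to 6.24–14.8 CPM (-4.21 ± 0.29), and Axin2, a target of Wnt signalling, fell (-1.47).

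The BMP antagonist Grem1 was at 579, 571, 569 and 962 CPM in normoxic and 2260, 1916 and 1603 CPM in hypoxic libraries (1.52 ± 0.21), groups that did not overlap. Of the listed mediators and targets of BMP signalling, Smad9 rose by 2.07, Smad7 by 1.29 and Id1 by 0.78, and the BMP receptor Acvrl1 by 1.92. Id2 (0.58), Smad6 (0.76) and Bambi (0.15) were not called with 7 libraries and rose by 1.02, 1.25 and 1.03 without replicate 4. Nog (noggin) was at 1.02, 1.36 and 1.84 CPM in replicates 1 to 3, 79.2 CPM in replicate 4 and 6.59, 7.38 and 3.77 CPM in hypoxic libraries. Its fold change turned sign with that library, from -1.82 (edgeR adjusted p = 0.412) to 2.06 (edgeR adjusted p = 4.2e-05). Igfbp5 did the same, from -0.22 to 3.39, with replicate 4 at 32.2 CPM and every other normoxic library at 1.03 CPM or less. The Wnt inhibitor Wif1 followed Sp7: 0.763–1.6 CPM in replicates 1 to 3, 48.4 in replicate 4 and 64.9–77.6 CPM in hypoxia.

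AP-1 is a dimer of Fos and Jun family proteins that responds to growth factors and stress. All 10 listed members were tested and 7 rose (70%, against 27% of all genes) and none fell, with a median of 2.12. Fos, an immediate early gene, was at 7.01, 7.13, 6.13 and 4.9 CPM in normoxic and 156, 103 and 141 CPM in hypoxic libraries (4.41 ± 0.18). Atf3 rose from 1.49–3.37 to 23–42.3 CPM, the small Maf factor Maff from 7.09–15.8 to 142–206 CPM, and Fosb by 2.39. Jun was at 39.6–42.7 CPM in replicates 1 to 3, 105 CPM in replicate 4 and 197–219 CPM in hypoxic libraries (1.86 ± 0.35). Jund (-0.13), Junb (0.74, edgeR adjusted p = 0.0714) and Batf3 (0.01) were not called with 7 libraries, Junb rose by 1.09 without replicate 4, and with library size alone 1 member of the list was lower.

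The ERK pathway induces its own brakes, and the list of 20 read here also holds EGF family ligands, their receptor and other genes. Of its 18 tested genes 12 rose (66.7%, against 27% of all genes) and 1 fell (5.56%, against 27.3%), at a median of 0.90. Without replicate 4, 13 rose and 4 fell (median 0.84). The phosphatases Dusp4 and Dusp6, which inactivate ERK, rose by 3.08 and 2.78, and Dusp6 was at 3.82–5.19 CPM in normoxic and 28.1–32.5 CPM in hypoxic libraries. Etv4, an ETS factor downstream of FGF signals, went from 0.165–0.507 to 8.9–9.79 CPM (4.83 ± 0.28). It passed the count filter through the hypoxic group alone, which favoured a rise. Of the ligands, Hbegf rose by 1.63 and Ereg by 1.00, while their receptor Egfr fell from 6.96–9.88 to 2.11–2.71 CPM (-1.91 ± 0.19). Plaur, the urokinase receptor, and Il1rl1, the IL-33 receptor, rose by 2.64 and 2.85. Sprouty genes differed in part: Spry2 rose by 0.75, and Spry4 (-0.20) was not called with 7 libraries and fell (-0.52) without replicate 4. Spry1 did likewise (-0.58 and -0.85), and Spred1 (-0.10) was called in neither fit.

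Of 10 genes of the HIF pathway itself, 4 rose and 2 fell (40% and 20%, against 27% and 27.3% of all genes; median 0.40), while 4 fell with library size alone and 1 without hypoxic replicate 2. Hif1a, the oxygen-regulated subunit, was at 257, 262, 260.1 and 269 CPM in normoxic and 399.5, 399 and 431 CPM in hypoxic libraries (0.64 ± 0.08), and its partner Arnt rose by 0.58. The prolyl hydroxylases Egln1 and Egln3, which are HIF targets and are counted again below, went from 57.1–81.5 to 338–457 CPM and from 307–406 to 846–962 CPM. Epas1 (HIF-2alpha) was at 2.11 CPM or less in every library and was not called with 7 libraries (1.16; 1.65 and called without replicate 4). Vhl, the ligase subunit that removes hydroxylated HIF, had a log2 fold change of -0.16 and was not called.

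Glucose uptake and glycolysis rose nearly throughout: 21 of 23 genes were higher and none lower, with and without replicate 4, at medians of 2.90 and 2.94. Among the 23, 1 passed the filter through the hypoxic group alone. Glucose enters through Slc2a1 (GLUT1), which was at 85.3, 93.4, 92.2 and 78.7 CPM in normoxic and 643, 769.9 and 957 CPM in hypoxic libraries (3.18 ± 0.14). Hexokinase 2 (Hk2), which traps it, was at 14.1, 16, 15.5 and 12.6 and 349.9, 352 and 332 CPM (4.57 ± 0.10). The groups were far apart for both, and replicate 4 was the lowest library. Pfkfb3, which makes the activator of phosphofructokinase, went from 11.8–17.9 to 312–369 CPM, Pgk1 from 279–425 to 2934–3206 CPM and Eno1 from 167–259.5 to 1452–1844 CPM.

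Lactate dehydrogenase A (Ldha), the gene with the 5 promoter matches above, was at 173, 159.9, 167 and 328 CPM in normoxic and 2118, 2151 and 2409 CPM in hypoxic libraries (3.43 ± 0.26, edgeR adjusted p = 1.41e-05), with replicate 4 higher than the other normoxic libraries. Pdk1, which keeps pyruvate out of the mitochondrion, rose by 3.20 ± 0.09, and Slc16a3 (MCT4), the exporter of lactate, rose by 4.69 but only to 0.896–2.39 CPM. It is the gene that passed the filter through the hypoxic group alone. Pfkfb4 (0.16) was not called. Gapdh and Aldoa have many near-identical copies in the mouse genome, and their values are uncertain: Gapdh was at only 58.8, 11, 12.4 and 17.1 and 85.4, 25.6 and 21.5 CPM, spread widely within each group, and Aldoa at most 3.48 CPM.

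Of 43 other hypoxia targets 41 were tested, 36 rose and 1 fell (median 2.41), and 37 rose and 2 fell without replicate 4 (median 2.30). Car12 and Ndufa4l2, counted among the rises, passed the count filter through the hypoxic group alone, which favoured a rise. Vegfa, the main angiogenic factor, was at 42, 40.5, 43.4 and 34.6 CPM in normoxic and 302, 314 and 269 CPM in hypoxic libraries (2.88 ± 0.10). The mitophagy receptor Bnip3 was at 49.5, 51.7, 44.4 and 40.7 and 872, 885 and 994 CPM (4.30 ± 0.11). In both, the groups did not overlap and replicate 4 was the lowest library. Adrenomedullin (Adm) went from 11.3–18.7 to 319–451 CPM, the surface carbonic anhydrase Car9 from 0.371–0.674 to 8.67–13 CPM, Ndrg1 from 48–55.8 to 666–880.3 CPM and the circadian repressor Bhlhe40 from 16.3–25.9 to 510.3–607 CPM. The histone demethylase Kdm3a rose by 2.17.

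The 1 target that fell in both fits was the chemokine Cxcl12, at 254, 262, 265 and 109 CPM in normoxic and 81.3, 68.8 and 70.4 CPM in hypoxic libraries (-1.60 ± 0.30). Stc2 (-0.46) was not called with 7 libraries and fell (-0.69) without replicate 4. Lysyl oxidase (Lox), a known hypoxia target that cross-links collagen, was not called: it was at 6216, 6400, 6362 and 5201 CPM in normoxic and 6526, 6562 and 6799 CPM in hypoxic libraries, with a log2 fold change of 0.13 ± 0.10 (edgeR adjusted p = 0.307). Angptl4 (-0.21) was not called either.

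Genes of the respiratory chain lie in the nucleus and in the mitochondrion. Of 58 nuclear genes of oxidative phosphorylation 56 were tested, 4 rose (7.14%) and 17 fell (30.4%, near the 27.3% of all genes) at a median of -0.11, within the shift that library size alone makes (under which 2 rose and 29 fell). Without replicate 4, 10 rose and 19 fell, and in the fit of all 28 libraries 7 rose. Ndufa4 fell from 55.2–90.3 to 26.6–28.6 CPM (-1.22 ± 0.18), and its homologue Ndufa4l2, a HIF target that lowers complex I activity, rose from 0.0824–0.338 to 15.3–18.1 CPM (6.22 ± 0.27), tested through the hypoxic group alone. Sdhb of complex II fell (-0.58). Of 12 tested mitochondrially encoded genes 8 fell and 1 rose (median -1.16). Among the 8, mt-Nd3 (-1.35) passed the count filter through the normoxic group alone, which favoured a fall. mt-Nd4, mt-Nd5 and mt-Cytb changed by -1.57, -1.68 and -1.67, whereas the cytochrome oxidase genes mt-Co1, mt-Co2 and mt-Co3 (-0.20, 0.42 and -0.21) were not called. The gene that rose, mt-Nd6 (0.48), is transcribed from the opposite strand to the rest, and it was not called with library size alone (0.33) or without hypoxic replicate 1 (0.37).

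Cell division genes were higher in low oxygen. Of 32 genes 23 rose and none fell with 7 libraries (median 2.23), and 28 rose without replicate 4 (median 2.42). With library size alone 1 of the 32, Pcna, was lower (-0.35). Mki67, a marker of cycling cells, was at 8.86, 7.42, 8.47 and 14.3 CPM in normoxic and 88.2, 69.9 and 100 CPM in hypoxic libraries (3.14 ± 0.23, edgeR adjusted p = 9.62e-06). Cyclin B1 (Ccnb1), which drives entry into mitosis, was at 3.23, 2.35, 2.94 and 3.68 and 29, 29 and 33.6 CPM (3.32 ± 0.15), and the kinetochore protein Cenpf went from 3.97–5.45 to 43.1–50.7 CPM. The groups did not overlap for any of these genes.

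The rise was uneven over the cycle. Every listed gene of mitosis (Ccnb1, Ccnb2, Cdk1, Cdc20, Bub1, Bub1b, Aurka, Aurkb, Plk1, Birc5, Cenpa, Cenpe, Cenpf, Kif11, Kif20a and Tpx2) was called higher with 7 libraries, at 1.91 to 3.34. The 9 that were not called were Ccne1, Pcna, Tyms and the replicative helicase genes Mcm2 to Mcm7, at -0.24 to 0.76. Other listed genes outside mitosis were called higher, among them Ccne2, Tk1 and Rrm1 (1.47, 1.155 and 0.96). Without replicate 4, Mcm2 to Mcm6 rose, by 0.55, 0.84, 0.22, 1.41 and 1.35, while Pcna (-0.11) and Mcm7 (0.01) were not called. Rrm2, the S-phase subunit of ribonucleotide reductase, was at 8.9–10.2 CPM in replicates 1 to 3, 39.1 CPM in replicate 4 and 132–143 CPM in hypoxic libraries (3.02, and 3.87 without replicate 4). The cell cycle inhibitor p21 (Cdkn1a) also rose, from 102–124 to 442–672 CPM (2.29 ± 0.14), as did Ccnd1 (0.60), while p57 (Cdkn1c) fell (-0.50), a call lost without hypoxic replicate 2 (-0.48). Of 7 tested genes of that list 4 rose and 2 fell, but only 2 rose without any 1 of normoxic replicates 1 to 3, without hypoxic replicate 3, with library size alone or with no filter beyond 1 count, and only 1 fell without hypoxic replicate 2.

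Of 21 collagens 11 rose (52.4%, against 27% of all genes) and 6 fell (28.6%, near the 27.3% of all genes; median 0.49), and without replicate 4 12 of 20 rose and 6 fell (median 0.74). Type VI collagen rose as a set of 3 chains, Col6a1 by 0.94, Col6a2 by 0.56 and Col6a3 by 2.17 ± 0.09. Col7a1, which anchors basement membranes, went from 1.63–3.11 to 16.2–25.2 CPM, and Col15a1 rose by 1.88. The basement membrane chains Col4a1 and Col4a2 fell (-0.64 and -1.18), while Col4a5, Col4a6 and Col18a1 of the same membranes rose by 0.88, 0.96 and 0.99. Col8a1 fell from 1298–1668 to 255–281 CPM (-2.41 ± 0.12). Col3a1 was not called (-0.14).

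Of 21 enzymes that modify collagen 6 rose and 6 fell (28.6% each), near the 27% and 27.3% of all genes (median -0.03). Without replicate 4, 9 rose and 7 fell (median 0.06), where 32.9% and 32.7% of all genes did. Of the hydroxylases, P4ha1 was at 153, 154, 146 and 198 CPM in normoxic and 935, 939 and 1170 CPM in hypoxic libraries (2.64 ± 0.14), and P4ha2 and Plod2 rose by 2.80 and 2.49. These genes are known HIF targets and are counted above as well. The prolyl 3-hydroxylase P3h1, whose loss makes bone brittle, fell from 128–176 to 50.9–62.7 CPM (-1.29 ± 0.14). Loxl3 and Loxl4 rose by 1.45 and 1.95 and Loxl1 fell (-1.06).

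Of 23 other matrix proteins 5 rose (21.7%) and 11 fell (47.8%, against 27.3% of all genes) at a median of -0.57, and 7 rose and 12 fell without replicate 4 at a median of -0.14. Among genes of elastic fibres Eln fell (-7.84), Mfap4 (-4.28), Fbln5 (-2.36), Fbn2 (-2.15) and Fbln1 (-1.57), while Fbn1 rose by 0.62. Mfap5, another of them, was not called with 7 libraries (-0.01) and rose by 1.23 without replicate 4. Eln and Mfap4 passed the count filter through the normoxic group alone, which favoured a fall. Versican (Vcan), a large proteoglycan, was at 264, 296, 289.9 and 429 CPM in normoxic and 1781, 1869 and 1819 CPM in hypoxic libraries (2.51 ± 0.16), and fibronectin (Fn1) rose by 0.62. Among 15 tested proteases and inhibitors 7 rose (46.7%) and 4 fell (26.7%, near the 27.3% of all genes; 18 listed; 2 fell with no filter beyond 1 count). Mmp13, the collagenase of bone, went from 9.27–10.5 to 91.4–111 CPM (3.36 ± 0.10), and urokinase (Plau) rose by 2.59 while tissue plasminogen activator (Plat) fell (-1.73). The inhibitor Timp3 rose by 1.49. Adamts5 was at 52.5–52.9 CPM in replicates 1 to 3, and at 11.5 CPM in replicate 4 and 10.4–12.5 CPM in hypoxia, so the groups overlapped (-1.90 ± 0.51).

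Contractile genes fell. Of 19 tested of 20, 13 fell and 1 rose (median -0.88), and their summed level was 11100 to 13600 CPM in normoxic and 6330 to 6790 CPM in hypoxic libraries. Acta2, the actin of smooth muscle and myofibroblasts, was at 3070, 2956, 3104 and 4389 CPM in normoxic and 1738, 1640 and 1939 CPM in hypoxic libraries (-0.93 ± 0.15), with replicate 4 the highest. Tagln and Tpm1 fell (-1.10 and -1.23), and Itga8 fell from 584–1224 to 154–258 CPM. Myh11, the marker of mature smooth muscle, was at 2.47 CPM or less throughout and was not called.

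Markers of other lineages were read for the whole list. The 22 cartilage markers summed to 1920 to 1960 CPM in normoxic replicates 1 to 3, 3250 CPM in replicate 4 and 1660 to 1720 CPM in hypoxic libraries. Col11a1, a fibrillar collagen that bone cells also make, was 47% to 88.3% of that sum and fell (-0.84). Without it the list summed to 225 to 247 CPM in replicates 1 to 3, 1720 CPM in replicate 4 and 742 to 773 CPM in hypoxic libraries. Of 13 tested, 2 rose and 2 fell with 7 libraries (median -0.84), while limma-voom and the fit of all 28 libraries each called 4 higher. Without replicate 4, 7 rose and 2 fell (median 0.65). Among the genes that fell, Cytl1 (-6.46) passed the count filter through the normoxic group alone, which favoured a fall. Col2a1, the main cartilage collagen, was at 37, 39.8 and 45.6 CPM in replicates 1 to 3, 818 CPM in replicate 4 and 73.1, 73.9 and 75.6 CPM in hypoxic libraries, so its log2 fold change went from -1.66 (edgeR adjusted p = 0.335) to 0.86 (edgeR adjusted p = 1.12e-06) without that library. Sox9, the regulator of cartilage, was at 53.2–57.2, 204 and 189.8–226 CPM in the same order, and was not called with 7 libraries but rose by 1.90 without replicate 4. Col10a1, the collagen of hypertrophic cartilage, rose from 1.71–9.86 to 33.8–36 CPM (3.18 ± 0.63, and 4.25 without replicate 4).

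The summed level of the 14 adipocyte genes was 123 to 141 CPM in normoxic and 327 to 364 CPM in hypoxic libraries, with the defining markers Adipoq, Cd36 and Lep at 0. Without Adipor2, the most abundant of them, it was 23.4 to 29.7 CPM and 216 to 261 CPM. Pparg, the regulator of fat cells, rose from 4.68–6.59 to 36.2–38.6 CPM (2.74 ± 0.12), Fabp4 by 2.48 and the lipid droplet protein Plin4 by 3.94, while Lpl, tested through the normoxic group alone, fell (-4.01). Cebpa fell (-1.79) with 7 libraries, a call lost without any 1 hypoxic replicate (-2.13 to -1.59), and (-0.93) without normoxic replicate 4. Neural crest genes summed to 3010 to 3640 CPM in normoxic and 2440 to 2490 CPM in hypoxic libraries, with Sox10, Foxd3, Pax7 and Alx1 among those at 0. Prrx1, a factor of limb and facial mesenchyme, was 66.4% to 79.3% of that sum and fell (-0.63), and without it the list summed to 732 to 991 and 709 to 821 CPM. Of 14 tested 3 rose and 5 fell (median -0.03), and 6 rose and 6 fell without replicate 4. The glial and neuronal list summed to 8.23 to 9.77 CPM in normoxic replicates 1 to 3, 19.2 CPM in replicate 4 and 21.1 to 26.8 CPM in hypoxic libraries. In the same order, the endothelial list summed to 2.48 to 2.97, 4.96 and 2.71 to 5.27 CPM. The immune list summed to 3.63 to 3.94, 4.93 and 3.48 to 5.06 CPM. The epithelial list summed to at most 1.53 CPM in normoxic replicates 1 to 3, 74.7 CPM in replicate 4 and 91.6 to 107 CPM in hypoxia, nearly all of it the keratin Krt19, with Krt18, Cldn3 and Cldn4 at 0. The tendon list summed to 31.2 to 49.5 CPM in normoxic and 15.3 to 16.8 CPM in hypoxic libraries, and 2 of its 3 tested genes fell (66.7%, against 27.3% of all genes). The part of these other markers in the results above was not tested.

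Sterol synthesis fell as a whole. All 21 listed genes of cholesterol synthesis and its control were lower in hypoxic cultures with 7 libraries (median -1.62), without replicate 4 (-1.64) and with library size alone. Hmgcs1, which starts the mevalonate pathway, was at 354, 349.9, 347 and 279.7 CPM in normoxic and 114, 87.1 and 89.9 CPM in hypoxic libraries (-1.78 ± 0.13, edgeR adjusted p = 6.87e-06). Sqle, an oxygen-using epoxidase, fell from 228–257 to 73.8–89.4 CPM. Of their regulators, Insig1 fell (-1.67) and the transcription factor Srebf2 (-0.82). The groups did not overlap for any gene named here.

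Of 18 chaperones of the endoplasmic reticulum 9 fell and 1 rose (median -0.42), and 11 fell and 2 rose without replicate 4 (median -0.23). With library size alone none rose. BiP (Hspa5) was at 759.8–787 CPM in replicates 1 to 3, 1489 CPM in replicate 4 and 419.7–479 CPM in hypoxic libraries (-1.11 ± 0.25), and Manf and Sdf2l1 fell (-1.51 and -1.72). Of 17 tested targets of Atf4 7 rose (41.2%) and 2 fell (11.8%, under the 27.3% of all genes; median 0.04; 5 fell with library size alone): the cystine transporter Slc7a11 went from 0.989–1.28 to 11.5–18.3 CPM (3.65 ± 0.20), Asns (-0.14) was not called and Chac1 fell (-0.73), a call lost without hypoxic replicate 2 or 3 (-0.57 each). Psat1, the other that fell (-0.45), was not called without hypoxic replicate 2 (-0.38), which left no call lower. Of 15 tested interferon genes 9 fell and 1 rose (median -0.75), and 3 of the 15 passed the count filter through 1 group only. Ifit1 and Oasl2 fell (-2.92 and -3.44), but both passed it through the normoxic group alone, which favoured a fall. Ifit1 was at 1.05–1.98 CPM in normoxic and 0.0358–0.364 CPM in hypoxic libraries.

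The oxygen response was then compared with that of the chondrocyte and the proliferating cultures, by testing the difference between the responses in a model with 4 groups. Between osteoblast and chondrocyte cultures 5750 of 15199 genes differed, 3061 (20.1%) with the more positive response in osteoblast cultures and 2689 (17.7%) with the more negative. Between osteoblast and proliferating cultures 8394 of 15486 differed, 4475 (28.9%) and 3919 (25.3%). Both differences use the same 7 osteoblast libraries.

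Cell cycle genes set the osteoblast cultures apart from both. Their median oxygen response was 2.23 in osteoblast, -0.72 in chondrocyte and -0.74 in proliferating cultures, and the difference was called in 28 of 32 genes against chondrocyte and in all 32 against proliferating cultures, each time above 0. For Mki67 the responses were 3.14, -0.87 and -0.04, and the differences 4.00 (edgeR adjusted p = 6.8e-07) and 3.22 (edgeR adjusted p = 3.6e-07). Sterol genes had median responses of -1.62, -0.68 and 0.20, with 18 of 21 differences called below 0 against chondrocyte and all 21 against proliferating cultures. For Fdps, the farnesyl pyrophosphate synthase, they were -2.17 and -3.59.

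Fosl1 responded by 6.50 in osteoblast, 0.39 in chondrocyte and 0.36 in proliferating cultures, with differences of 6.10 (edgeR adjusted p = 1.06e-06) and 6.17 (edgeR adjusted p = 2.82e-08). The AP-1 list differed above 0 in 7 genes and below in 1 against chondrocyte, and in 6 and 1 against proliferating cultures. For Sp7 the difference from chondrocyte cultures was 2.50 and was not called (edgeR adjusted p = 0.217). For Ibsp and Spp1 it was 6.74 (edgeR adjusted p = 7.87e-05) and 3.05 (edgeR adjusted p = 9.55e-08), and Spp1 also differed from proliferating cultures by 2.41. Egfl6 had too few counts in the other cultures for a response of its own there.

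Hypoxia targets had positive median responses in all 3 culture conditions. The median response of glycolysis genes was 2.90 in osteoblast, 1.12 in chondrocyte and 2.08 in proliferating cultures, with 18 of 23 differences above 0 and none below against chondrocyte cultures, and 12 above and 5 below against proliferating ones. Other hypoxia targets had medians of 2.41, 1.07 and 2.46, with 29 differences above 0 and 1 below against chondrocyte cultures, and 9 above and 15 below against proliferating ones. Lox, not called in osteoblast cultures, responded by 0.55 in chondrocyte and 3.48 in proliferating cultures, and the second difference was called (-3.31, edgeR adjusted p = 1.44e-11). Vldlr, a lipoprotein receptor induced by hypoxia, responded by 2.07, 0.99 and 3.66, so osteoblast cultures lay above chondrocyte cultures (1.07, edgeR adjusted p = 0.0415) and below proliferating ones (-1.55, edgeR adjusted p = 0.00335).

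**Figure D4:**
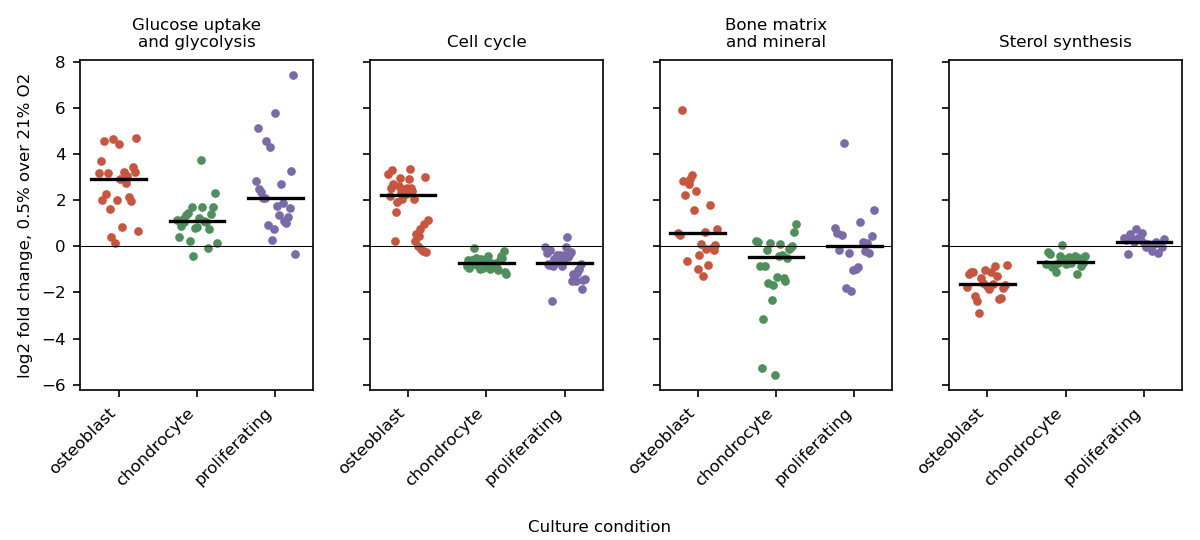
The log2 fold change of hypoxic over normoxic libraries for the genes of 4 lists in osteoblast, chondrocyte and proliferating cultures, 1 point for each gene with a value there and a bar at the median. The cell cycle list is at 2.23 in osteoblast and at -0.72 and -0.74 in the other cultures, and sterol synthesis at -1.62, -0.68 and 0.20.

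In bone matrix and mineral genes the median response was 0.57 in osteoblast (23 genes), -0.46 in chondrocyte (24) and 0 in proliferating cultures (18), and over the 18 genes with a value in all 3 it was 0.07, -0.26 and 0. Against chondrocyte cultures 11 of 24 differences were above 0 and 3 below, where 20.1% and 17.7% of all genes were. Against proliferating cultures 6 of 23 were above 0 and 3 below, under the 28.9% and 25.3% of all genes. Interferon genes differed from proliferating cultures in 16 of 19, all below 0, and from chondrocyte cultures in 3 of 16, 1 above 0 and 2 below. Over the 12 of them with a value in all 3 conditions, the median response was -0.52 in osteoblast, -0.25 in chondrocyte and 0.82 in proliferating cultures.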

How the data were processed

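RNA was extracted with a column kit, and 400 ng per sample went into a stranded library kit, per the labels' protocols. Submitters' processing notes name HISAT2 2.0.5, StringTie 1.3.3b, featureCounts 1.5.0-p3 and the mouse build mm10; whether counting used the strand is not given in the sources used here, so overlapping and antisense genes are uncertain. The authors deposited raw counts per gene for 28 libraries, which are used here, and 10 tables of log2 fold changes and p-values of their own comparisons, of which only the values credited to the authors' deposited table are printed. A further 70 deposited columns of normalised values were not used. Gene symbols and positions follow the deposited annotation and GENCODE.

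Libraries were grouped by title. Counts of the 7 libraries were filtered with filterByExpr (at least 10 counts in a group's worth of libraries and 15 in all), scaled by TMM and tested with edgeR 4.0.16 (glmQLFit and glmQLFTest, R 4.3.3), two-sided, with Benjamini-Hochberg adjustment over all genes tested. Differences between culture conditions are interaction terms in a 14-library fit. DESeq2 1.42.0 and limma 3.58.1 (voom) were alternatives, with other scalings, filters, each library left out and the replicate number as a block. At a depth of 23357645 to 29675404 counts per library, genes under about 1 CPM rest on few counts. What limits the calls of other genes was not tested. The fit was tested on simulated data with 200 changed genes, at a dispersion of 0.01. Those data had far fewer changed genes than were called here and no library set apart, so they do not test these conditions. Positions used log2(CPM + 0.5).

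Members, taken by title, and gene lists were chosen with earlier results of these data known, so a list's counts are a description. Genes were named by rule: the 10 largest changes each way called in both fits without overlap of the groups and with at least 10 counts on average in each group; 4 each way under 10 counts in 1 group; 8 each way by difference in CPM; and genes shown for their role. Predicted and mitochondrial genes were passed over in the first 3 parts, and some genes of the lists are not reported here by name. Deviations of same-numbered hypoxic and normoxic libraries from their group means correlated little (0.0539, 0.0367 and -0.0538). The normoxic mean included replicate 4, so this cannot exclude pairing, which the labels do not state.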

Additional observations from a re-analysis of the deposited data

Results flagged for a closer look

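Among the genes named above, normoxic replicate 4 lay so far from the other three normoxic libraries that its gap to the nearest took most of the group's whole range. Chance flags about 1 in 20 groups of 4. Over all genes tested replicate 4 was the library set apart in 2553 (17.6%), and each of replicates 1 to 3 in 0.537% to 0.557%.

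Replicate 4 stood above the others in genes of the osteoblast and cartilage lineages: Sp7 (47.9 CPM), Alpl (42.2), Ibsp (3.38), Hey1 (92.2), Wif1 (48.4), Nog (79.2), Igfbp5 (32.2), Col1a1 (9783), Sox9 (204) and Col2a1 (818). It was also above them in Krt19 (74.6), Lamb3 (8.85), Sorbs2 (3.44), Acta2 (4389), Eln (88.9), Col8a1 (1668), Kctd12 (1703), Ldha (328), Mt1 (815), Mt2 (807) and Ndufa4 (90.3). It stood below them in Egfl6 (180), Slit2 (299), Sema3g (124), Col23a1 (39.7), Agtr2 (9.29), Sncaip (6.62), Fgf18 (3.61), Gas1 (1219), Fbln5 (990), Lox (5201) and Adamts1 (1598). Without this library every one of these genes except Lox was called. Col2a1, Nog and Igfbp5 then turned from a negative to a positive fold change.

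The oxygen response differed between osteoblast and chondrocyte cultures in 5750 genes and between osteoblast and proliferating cultures in 8394 genes (edgeR interaction tests). Among genes named above, the osteoblast response exceeded the chondrocyte and the proliferating one for Mki67 (by 4.00 and 3.22 on the log2 scale) and Fosl1 (6.10 and 6.17). It lay below both for Fdps (-2.17 and -3.59), and for Vldlr it lay between them (1.07 and -1.55).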

How the results depend on the processing

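Each count of called genes over all genes stayed within 1.5 times its value above under the alternatives run. Of the 58 counts within a gene list, 26 moved further under at least 1 of them: 13 with the replicate block, 12 without normoxic replicate 4, 10 with library size alone and 1 to 6 under each other alternative that moved any. Genes called higher ranged from 3036 (library size alone) to 4633 and genes called lower from 3536 (at least 10 counts in every library) to 5200 (library size alone); with 1 library left out they ranged from 3385 to 4707 and from 3233 to 4670, the highest without normoxic replicate 4. DESeq2 called 4082 and 4120, limma-voom 4045 and 3911, and the fit of all 28 libraries 4465 and 4487. With 1 osteoblast library left out, genes whose response differed ranged from 5059 to 6725 against chondrocyte and from 7945 to 9297 against proliferating cultures.

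The labels do not say that replicate numbers pair the samples. With the number as a replicate block, 4633 genes were higher and 4637 lower (4588 and 4595 without normoxic replicate 4, and 6337 and 9453 in the interactions). The block gives normoxic replicate 4 a term of its own, so that fit sets the library aside. The log2 fold change turned sign under the block and without normoxic replicate 4 for Col2a1 (0.87 and 0.86), Hapln1 (0.93 and 0.94), Tubb3 (1.46 and 1.44), Igfbp5 (3.42 and 3.39), Mfap5 (1.25 and 1.23) and Nog (2.03 and 2.06). With each library left out in turn the values spanned -2.02 to 0.86 for Col2a1, -1.32 to 0.94 for Hapln1, -0.41 to 1.44 for Tubb3, -0.63 to 3.39 for Igfbp5, -0.28 to 1.23 for Mfap5 and -2.22 to 2.06 for Nog. Of 269 genes followed, 31 gained a call with the same sign without normoxic replicate 4, no gene called with 7 libraries changed sign under any alternative run, and calls were lost in 4 to 12 genes without 1 other library. With no filter beyond 1 count Tagln (-1.11), Smad7 (1.29), Plat (-1.73), Adamts5 (-1.90) and Cebpa (-1.79) were not called, nor were Adamts5 (-1.65) and Cebpa (-1.53) by limma-voom or Smpd3 (0.61) in the fit of all 28 libraries. The cause was not tested.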

Other observations

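Normoxic replicate 4 was at least 4-fold above the highest of replicates 1 to 3, at 10 CPM or more, in 69 genes and as far below the lowest in 11. In 27 of the 69 the hypoxic mean was at least 0.5 times the level of replicate 4, and in 26 it was within 2-fold of replicates 1 to 3. These genes were picked after their values were seen. Unc5b, a netrin receptor, was at 109 to 114 CPM in replicates 1 to 3, 535 CPM in replicate 4 and 671 to 822 CPM in hypoxic libraries, while Col9a1 of cartilage was at 3.01–5.53, 112 and 0.591–4.65 CPM. Of those below, Crabp1, which binds retinoic acid, was at 36.9–41, 8.48 and 8.49–9.87 CPM.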
